A study of Homo sapiens with 9 samples.

Results

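ENPP1, ROR1 and PNMA1 are 3 genes whose signal in BT-549 cells was higher after transfection of a negative control small RNA than in mock-transfected cells or in cells given a miR-150-5p mimic. They were taken by name out of 14884 genes tested and were chosen by their measured log2 signal on these arrays, high in the negative control against mock and the mimic, so their levels against the negative control are described here without a test. Each of the 3 was read by 1 feature of a whole-transcript array. Per the labels the RNA was labelled with the FlashTag kit, which is made for small RNA, and neither its use on whole transcripts nor the array definition behind each feature was stated, so how each signal relates to the mRNA's amount was not checked here. BT-549 is an established human triple-negative breast cancer cell line, from a kind of tumour without estrogen receptor, progesterone receptor or HER2 amplification. The 9 samples were 3 mock samples, given the lipid reagent Lipofectamine RNAiMAX with no RNA, 3 given a non-specific negative control RNA at 50 nM, and 3 given mature miR-150-5p as a mimic at 50 nM. All 9 had their medium replaced after 24 h and gave total RNA at 72 h. All 9 thus received the lipid, and untransfected cells were not among the samples. Whether a group's 3 samples were separate cultures is not in the labels, so p-values reflect only the spread among these samples, possibly a technical one. In bulk RNA, fewer cells with a transcript and less of it per cell cannot be told apart.

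ENPP1 encodes an enzyme on the outer face of the plasma membrane that splits extracellular ATP into AMP and pyrophosphate, which restrains mineralisation. It also breaks down cGAMP, the messenger by which the DNA sensor cGAS activates STING, and it binds the insulin receptor. ROR1 encodes a receptor with a tyrosine kinase-like domain that binds WNT5A in non-canonical Wnt signalling; it is mainly an embryonic protein that many tumours make again. PNMA1 encodes a protein of the paraneoplastic Ma antigen family, which derives from the Gag protein of a retrotransposon, is found mostly in brain and testis, and is a target of autoantibodies in patients whose tumours provoke neurological disease.

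The stretches of 250 bases before the start sites of ENPP1 and ROR1 are shown because the genes were chosen for 1 pattern over the groups and because both stretches are rich in CpG but hold different promoter motifs. They are from RefSeq on GRCh38.p14, at chr6:131807770-131808019 and chr1:63773767-63774016, both on the plus strand, and 2 of the 3 genes matched the RefSeq promoter table. Capitals mark GGGCGG, the GC box, and CCAAT, the CCAAT box, on either strand.
ENPP1: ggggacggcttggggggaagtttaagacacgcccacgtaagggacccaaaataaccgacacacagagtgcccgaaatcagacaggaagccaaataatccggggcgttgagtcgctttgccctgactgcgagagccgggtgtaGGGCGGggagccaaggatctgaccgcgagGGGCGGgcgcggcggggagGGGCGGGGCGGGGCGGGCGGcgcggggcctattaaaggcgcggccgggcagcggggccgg
ROR1: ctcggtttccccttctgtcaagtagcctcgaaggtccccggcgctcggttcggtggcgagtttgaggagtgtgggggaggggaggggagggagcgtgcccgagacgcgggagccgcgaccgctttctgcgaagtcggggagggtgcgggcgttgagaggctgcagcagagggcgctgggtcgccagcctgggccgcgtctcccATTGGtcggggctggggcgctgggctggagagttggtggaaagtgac
The ENPP1 stretch holds 6 GC boxes, 4 of which overlap their neighbours, and no CCAAT box. The ROR1 stretch holds 0 GC boxes and 1 CCAAT box, which lies on the minus strand, 47 bases before the start site. Among 27305 promoters of the same length, 42.3% hold a GC box and 33% a CCAAT box. Neither stretch holds TATAAA (11.1% of promoters), the AP-1 site TGANTCA (6.6%), the E-box CACCTG (17.5%) or the core of the interferon-stimulated response element (3.07%), each searched on both strands. The stretches have 28 and 24 CpG dinucleotides, against a median of 11 over all promoters, and a GC content of 68.8% and 69.2%, against a median of 58%. These matches describe the letters only.

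The arrays resembled each other closely. Array medians over all 53617 features lay between 2.43 and 2.48 on the log2 scale, and pairs of arrays had Pearson's r of 0.981 to 0.989 within groups and 0.977 to 0.986 between them (over features, which are no replicates). The line's labelled type was checked against markers. The mesenchymal genes VIM, FN1, CD44 and AXL read 7.07 to 9.18 as group means, while the receptor genes ESR1 and PGR (1.77 to 2.24) and the epithelial genes EPCAM and ESRP1 (1.77 to 1.94) read below the array medians. Of the keratin genes, KRT18 read 7.42 to 7.73, KRT8 3.66 to 4.10 and KRT19 2.49 to 2.82. The blood and endothelial markers CD14, PECAM1 and VWF read 2.08 to 2.43. None of the 14 marker genes measured was called in any comparison. Of all genes 0.645% were called in negative control minus mock, 3.18% in mimic minus negative control and 3.9% in mimic minus mock.

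ENPP1 read 6.27, 6.45 and 6.13 on mock arrays 1 to 3, 7.63, 7.43 and 7.59 on negative control arrays 1 to 3, and 6.77, 6.77 and 6.62 on mimic arrays 1 to 3. The negative control arrays were the highest, the mimic arrays lay between, the mock arrays were the lowest, and no groups overlapped. The group means were 6.28 ± 0.16 (SD, n = 3) for mock, 7.55 ± 0.10 for the negative control and 6.72 ± 0.09 for the mimic. The negative control stood 1.27 ± 0.10 (SE) above mock on the log2 scale, or 2.41-fold, the largest positive difference of all genes in that comparison. The mimic stood 0.83 ± 0.10 below the negative control, a difference of -0.83 or 1.78-fold.

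ROR1 read 4.19, 4.13 and 4.37 on mock arrays 1 to 3, 5.04, 5.05 and 5.37 on negative control arrays and 4.09, 4.33 and 4.02 on mimic arrays. The negative control arrays lay above the other 6, and the mock and mimic arrays overlapped. Its means were 4.23 ± 0.12 (SD, n = 3) for mock, 5.15 ± 0.18 for the negative control and 4.15 ± 0.16 for the mimic. The negative control minus mock difference was 0.92 ± 0.12 (SE), or 1.89-fold, and the mimic minus negative control difference was -1.002 ± 0.12, or 2.00-fold.

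PNMA1 read 6.12, 6.06 and 6.43 on mock arrays 1 to 3, 7.24, 7.28 and 7.21 on negative control arrays and 6.06, 5.58 and 5.78 on mimic arrays. Again the negative control arrays were the highest, while the highest mimic array, mimic 1, and the lowest mock array, mock 2, read 6.06 each. Its negative control arrays were the tightest of the 9 combinations of gene and group (7.24 ± 0.03, SD, n = 3) and its mimic arrays the widest (5.80 ± 0.24), with mock at 6.20 ± 0.20. The difference of the negative control from mock was 1.04 ± 0.13 (SE), or 2.05-fold, and that of the mimic from the negative control was -1.44 ± 0.13, or 2.71-fold. This last difference was the 8th largest of all negative ones in that comparison, where ROR1 was the 38th and ENPP1 the 79th.

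**Figure D1:**
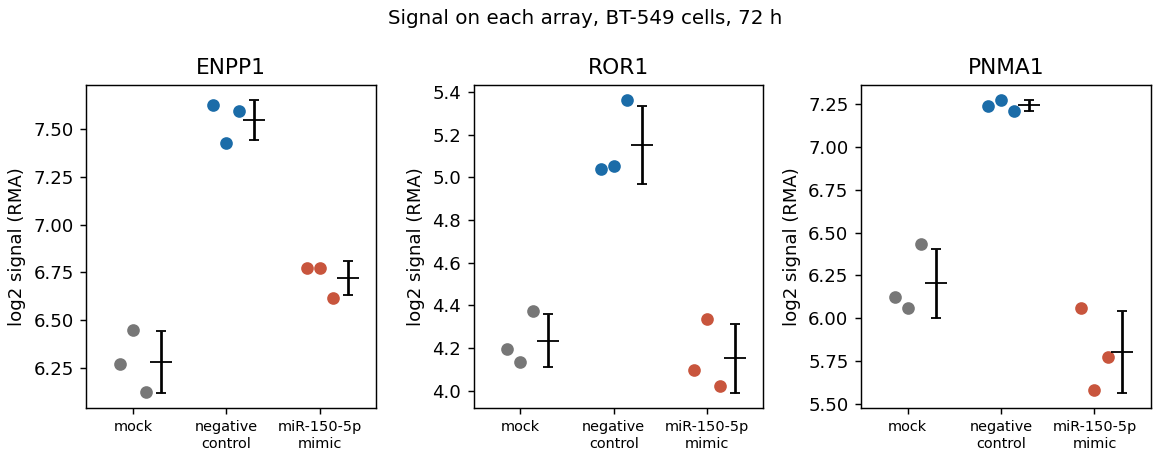
Log2 signal of ENPP1, ROR1 and PNMA1 on each array (points, replicates 1 to 3 from left to right) with the group mean and SD (bar, n = 3), each panel on its own vertical scale, which does not start at 0. The negative control arrays lie above the other 6 in all 3 panels; the mimic arrays lie above mock for ENPP1 and overlap mock for ROR1.

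The pattern of 3 negative control arrays above all 6 others was found for 341 of the 14884 genes (2.29%); the 3 genes were chosen for it, so nothing is read from their count. The numbers of the negative control and mock arrays may pair the samples. Within pairs 1, 2 and 3 the difference was 1.36, 0.98 and 1.47 for ENPP1 and 0.85, 0.92 and 0.99 for ROR1. For PNMA1 it was 1.11, 1.22 and 0.78. The choice of the genes fixed the positive sign of these values, so the sign is no result. Mock 2 and negative control 2 had, within their groups, the highest mean over 23 small RNAs of the nucleolus and Cajal bodies, at 6.78 and 6.83 against 5.62 to 5.91 on the other mock and negative control arrays; the mimic arrays had 5.95 to 6.75. With both arrays left out, the negative control minus mock difference was 1.41 for ENPP1, 0.92 for ROR1 and 0.95 for PNMA1.

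The comparison of the mimic with mock was not itself used to choose the genes. Both its arms were, however, since the choice set the negative control against mock and against the mimic, so its p-values are not independent of the choice. ENPP1 was 0.44 ± 0.10 higher in the mimic (1.36-fold, 95% interval 0.21 to 0.67, n = 3 per group, limma adjusted p = 0.048), and the 3 mimic arrays lay above the 3 mock arrays, as in 11.7% of genes. It was 1 of 580 genes called in this comparison (3.9%), 339 of them higher (2.28%). The call is at the edge of the threshold. It was lost without mock 1 or 3, negative control 1 or 3, or any mimic array, reaching an adjusted p of 0.16 when mimic 1 was left out, and a second quantile normalization gave a difference of 0.36 (adjusted p = 0.12).

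ROR1 differed between mimic and mock by -0.08 ± 0.12 (95% interval -0.36 to 0.19, limma adjusted p = 0.81). PNMA1 was at -0.40 ± 0.13 (95% interval -0.70 to -0.10, unadjusted p = 0.014, limma adjusted p = 0.15) and did not pass. The genes were set against each other by their log2 ratio within each array, mimic against mock, for all 3 pairs, with 3 arrays against 3, where an exact two-sided permutation test cannot go below 0.1. ENPP1 exceeded PNMA1 by 0.84 and ROR1 by 0.52 in the mimic minus mock difference, and ROR1 exceeded PNMA1 by 0.32 (exact permutation p = 0.1, 0.1 and 0.3, adjusted over the 3 pairs 0.15, 0.15 and 0.3). ENPP1 against PNMA1 and ENPP1 against ROR1 reached the smallest p this test can give, and ROR1 against PNMA1 did not. Since that smallest p lies above the threshold used here, no pair could have passed. The test therefore cannot decide whether the 3 genes differ from each other in this comparison.

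**Figure D2:**
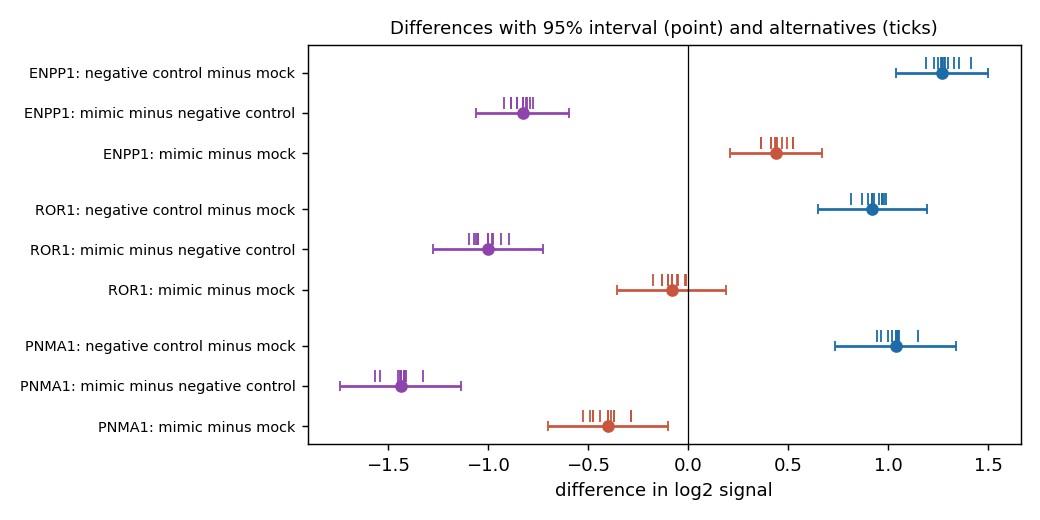
Differences in log2 signal between groups for the 3 genes: points with bars are limma estimates with 95% intervals (n = 3 arrays per group), and ticks above them are the 18 alternative settings of each. The genes were chosen by their differences from the negative control, so the intervals of those differences are no test. The mimic minus mock difference is 0.44 for ENPP1, -0.08 for ROR1 and -0.40 for PNMA1, and none of its ticks crosses 0.

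Among relatives of ENPP1, which share its phosphodiesterase fold, 6 of 7 family members were measured. In the negative control against mock the other 5 did not pass (of all genes 0.645% were called, 0.168% higher and 0.477% lower). ENPP4, which acts on a dinucleotide that promotes platelet aggregation, read 4.25, 4.47 and 4.80 on mock arrays, 5.25, 5.21 and 5.10 on negative control arrays and 5.74, 5.30 and 5.24 on mimic arrays. Its mock arrays lay below the other 6, and it did not read lower in the mimic than in the negative control. It rose in the mimic against mock by 0.92 ± 0.16 (limma adjusted p = 0.016; lost, at most 0.063, when mock 1, mock 2 or mimic 1 was left out), while its negative control minus mock difference of 0.68 ± 0.16 missed (adjusted p = 0.12).

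ENPP5 read 2.66, 2.69 and 2.47 on mock, 2.53, 2.71 and 2.69 on negative control and 3.51, 2.95 and 3.26 on mimic arrays, so that its mimic arrays alone stood apart. On mock and negative control arrays it read near the array medians. It rose against mock (0.63 ± 0.14, limma adjusted p = 0.037) and against the negative control (0.59 ± 0.14, adjusted p = 0.049), where 1.76% of genes were called higher. The first call was lost when any array but negative control 2 and mimic 2 was left out (adjusted p at most 0.11) and the second when any but mimic 2 was (at most 0.15). ENPP2, or autotaxin, which makes lysophosphatidic acid, was at -0.16, -0.21 and -0.37 in the 3 comparisons (negative control minus mock, mimic minus negative control, mimic minus mock) and passed in none. ENPP3 and ENPP6 read 1.85 to 2.07, below the array medians. In the mimic against mock 3 of 6 family members rose, ENPP1 included, where 2.28% of all genes did. The median of the 6 was 0.23, against 0.00035 over all genes. ENPP1 was chosen from these data, so neither the count nor the median is independent of that choice. With genes below the median signal left out the count was 2. The count was 0 when mock 1 or mimic 1 was left out, 1 when mock 2, mock 3, negative control 1, negative control 3 or mimic 3 was, and 2 or 3 for the other arrays.

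The other genes of the ENPP1 pathways were measured in part. Of 27 genes that make, break down or sense extracellular nucleotides, adenosine and pyrophosphate, 11 were measured. By limma 0 of these passed in any of the 3 comparisons (over all genes 0.645%, 3.18% and 3.9% were called). Their medians were 0.12, -0.12 and -0.11 in the 3 comparisons in the same order, against 0.0076, -0.0044 and 0.00035 over all genes. The adenosine receptor gene ADORA2B was at 8.22 ± 0.16, 8.17 ± 0.07 and 7.90 ± 0.07 (SD, n = 3) in mock, negative control and mimic. Of 18 measured genes of cytosolic DNA and RNA sensing, 14 were above 0 and 4 below in the negative control against mock, with a median of 0.093 and 0 passing, against 7763 above, 7114 below and a median of 0.0076 over all genes. In the mimic against the negative control 5 were above 0 and 13 below, and against mock 9 and 9. CGAS read 4.33 to 4.67 and STING1 2.46 to 2.58 as group means, the latter near the array medians. In the negative control against mock RIGI, a sensor of RNA with a 5′ triphosphate, stood at 0.17 (limma adjusted p = 0.67). IFIT1, an interferon-induced gene, stood at 0.20 (limma adjusted p = 0.72) and read 1.82 to 2.03 as group means, below the array medians. Of the 18 genes, 9 had a mean signal of 3 or more. ISG15, a ubiquitin-like protein induced by interferon, was the member that passed, in the mimic against the negative control (-0.69 ± 0.15, limma adjusted p = 0.040; lost, at most 0.13, when any array but mock 2 and negative control 3 was left out), where 3.18% of all genes were called. Of 8 genes next to the insulin receptor, including INSR and IRS1, 0 passed in any comparison.

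The closest relative of ROR1 is ROR2, the other receptor of its family. ROR2 read 2.70 ± 0.26 (SD, n = 3) for mock, 2.70 ± 0.38 for the negative control and 2.32 ± 0.05 for the mimic, near the array medians, and passed in no comparison (limma adjusted p from 0.33 to 1.0). Of 48 genes of non-canonical Wnt signalling other than ROR1, 29 were measured, ROR2 among them. In the negative control against mock 13 were above 0, 16 below and 0 passed, with a median of -0.025. Of all genes 0.645% were called there. The frizzled receptor gene FZD6 read 8.24, 8.40 and 7.94 as means of mock, negative control and mimic, and RYK, a Wnt co-receptor, 7.09, 6.82 and 7.08; neither passed.

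In the mimic against the negative control 2 of the 29 fell. PRICKLE2, a cytoplasmic protein of planar cell polarity, read 6.41, 6.52 and 6.80 on mock, 7.37, 6.77 and 7.51 on negative control and 6.07, 6.38 and 6.08 on mimic arrays. It fell by 1.04 on the log2 scale (SE 0.19, limma adjusted p = 0.020; lost, at most 0.084, when array 1 or 3 of either group was left out), and its negative control minus mock difference, 0.64 ± 0.19, did not pass (adjusted p = 0.22). CTHRC1, a secreted cofactor that favours non-canonical Wnt binding, was the other, at -0.59 ± 0.13 (limma adjusted p = 0.038; lost, at most 0.10, when any array but mock 3 and mimic 1 was left out). Against mock CTHRC1 also fell (-0.62 ± 0.13, adjusted p = 0.030; lost, at most 0.11, when mock 1 or 2, negative control 1, or mimic 2 or 3 was left out), as did the Wnt inhibitor SFRP1 (-0.61 ± 0.14, adjusted p = 0.046; lost, at most 0.16, when mock 1 or 3, negative control 3 or any mimic array was left out, and at 0.051 with arrays centred on their medians). These 2 of 29 stand beside 1.62% of genes called lower in that comparison, and the 2 against the negative control beside 1.42%.

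Of 14 genes that canonical Wnt signalling switches on, 13 were measured, and 0 passed in the negative control against mock. Of all genes 0.645% were called in that comparison, 3.18% in mimic minus negative control and 3.9% in mimic minus mock. DKK1, a secreted Wnt inhibitor, read 6.72 ± 0.07, 5.93 ± 0.41 and 6.91 ± 0.17 (SD, n = 3) in mock, negative control and mimic and rose in the mimic against the negative control (0.97 ± 0.18, limma adjusted p = 0.022; lost, at most 0.091, when negative control 3 or any mimic array was left out). BAMBI, a decoy receptor of TGF-beta, fell against mock (-0.58 ± 0.12, adjusted p = 0.028; lost, at most 0.10, when any mock array or mimic 1 or 2 was left out). Of 21 reported partners of ROR1 and genes of caveolae, which ROR1 is known to help assemble, 16 were measured. MET, the receptor of hepatocyte growth factor, moved the other way from ROR1: it read 7.94 ± 0.11 (SD, n = 3) for mock, 6.37 ± 0.14 for the negative control and 7.59 ± 0.03 for the mimic. It fell in the negative control against mock (-1.57 ± 0.09, limma adjusted p = 0.00015) and rose from the negative control to the mimic (1.22 ± 0.09, adjusted p = 0.00051). CAVIN4, a caveola protein mainly of muscle, rose in the mimic against the negative control (1.01 ± 0.22, adjusted p = 0.042; lost, at most 0.13, when any array but mock 3 and negative control 1 was left out, and at 0.057 after a second quantile normalization).

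**Figure D3:**
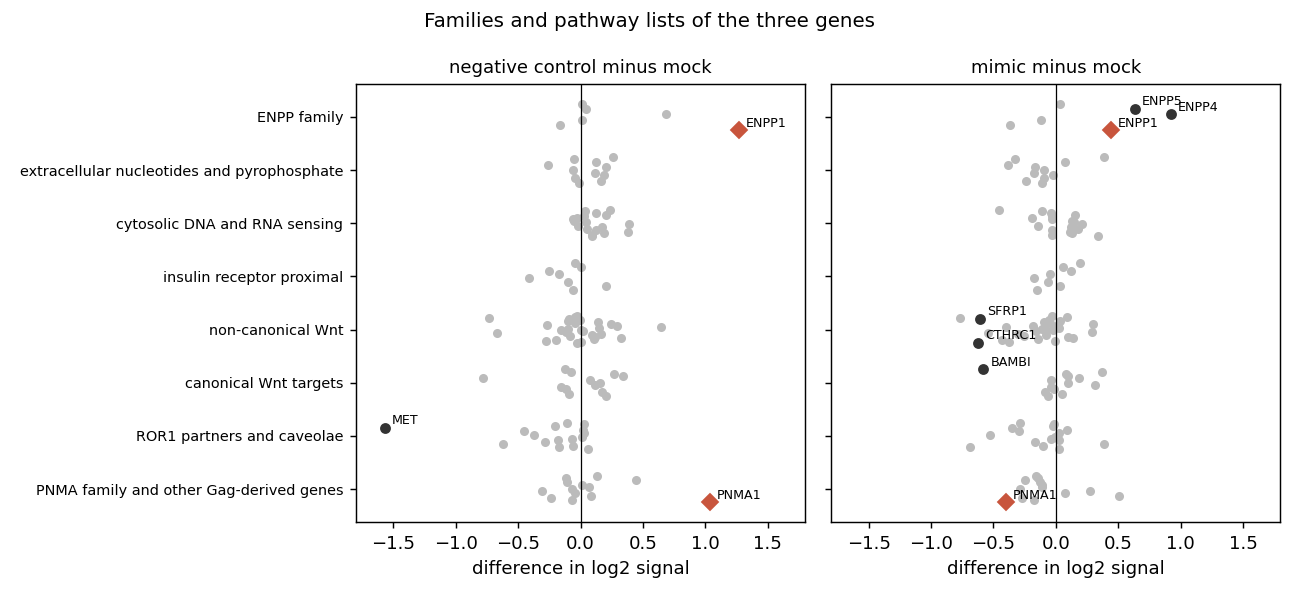
Differences in log2 signal for the measured genes of each list, negative control minus mock (left) and mimic minus mock (right). Diamonds are ENPP1 and PNMA1, dark points other genes at a limma adjusted p under 0.05, and grey points genes that did not pass; ROR1 is in no list and is not drawn. On the left MET is the dark point, at -1.57, and the other relatives and pathway genes lie between it and ENPP1 at 1.27.

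In the family of PNMA1 and other genes derived from Gag, 13 of 28 were measured. In the negative control against mock the other 12 did not pass, where 0.645% of all genes were called, and the median of the 13 was -0.044. PNMA2, another antigen of the same autoantibodies, read 2.40 to 2.58 as group means, near the array medians. PNMA3, PNMA5 and MOAP1, the last a partner of BAX in cell death, read 4.20 to 4.47, 4.42 to 4.54 and 4.47 to 4.98, and passed in no comparison. PNMA8A read 4.15, 4.32 and 4.32 on mock, 4.11, 3.74 and 4.00 on negative control and 4.50, 4.65 and 4.45 on mimic arrays. It rose in the mimic against the negative control (0.58 ± 0.11, limma adjusted p = 0.024; lost, at most 0.088, when negative control 3 or any mimic array was left out), where PNMA1 was at -1.44. PNMA8B was at -0.07, -0.22 and -0.29 in the 3 comparisons. PEG10, an imprinted gene that still forms particles from its Gag protein, had means of 7.31, 7.75 and 7.07 in mock, negative control and mimic and did not pass (adjusted p from 0.11 to 0.61). CCDC8, ARC, RTL1, RTL5 and RTL9 did not pass in any comparison either.

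The nearest measured genes on the chromosome were compared in the same way, 2 on each side by gene order in RefSeq. Beside ENPP1 on chromosome 6, MED23, a subunit of the Mediator complex, differed by 0.04 and ENPP3 by 0.01 between the negative control and mock. CCN2, which encodes connective tissue growth factor and lies 5 genes after ENPP1, read 9.06, 9.04 and 9.42 on mock, 8.15, 8.23 and 8.37 on negative control and 8.38, 8.48 and 8.39 on mimic arrays. It fell by 0.92 on the log2 scale in the negative control against mock (SE 0.11, limma adjusted p = 0.0095) and by 0.76 in the mimic against mock (adjusted p = 0.0081). Beside ROR1 on chromosome 1, PGM1, phosphoglucomutase, was at 0.05 and -0.31 and CACHD1, a subunit-like protein of calcium channels, at 0.27 and -0.38, for negative control minus mock and mimic minus negative control; neither passed. Beside PNMA1 on chromosome 14, MIDEAS, of a histone deacetylase complex, was at 0.07 and 0.003, and ACOT4 and ACOT6, acyl-CoA thioesterases, did not pass. Of the 12 neighbours CCN2 was the 1 that passed in any comparison. Over all genes 0.645% were called in negative control minus mock, 3.18% in mimic minus negative control and 3.9% in mimic minus mock.

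The genes whose pattern was most like each of the 3 were taken by Pearson's r over the 9 arrays, among 1395 genes whose values spanned at least 1 log2 unit. These r describe 3 groups more than 9 independent points, and the genes share arrays and normalization. For ROR1 they were ADAM19, a membrane metalloprotease (r = 0.97), MIR3159, a microRNA gene (0.95), PAQR5, a membrane progestin receptor (0.91), PNMA1 (0.91) and ISYNA1, the enzyme that makes inositol phosphate (0.91). For PNMA1 they were LGMN, the lysosomal protease legumain (0.97), EEPD1 (0.96), CAST, the calpain inhibitor calpastatin (0.95), PAQR5 (0.95) and GPX4, which reduces lipid peroxides (0.95). For ENPP1 they were CABYR (0.89), CAST (0.87), GRAMD1B, a sterol transporter (0.87), ROR1 (0.86) and TPD52L1 (0.84).

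The 3 genes had r = 0.91 for ROR1 with PNMA1, 0.86 for ENPP1 with ROR1 and 0.76 for ENPP1 with PNMA1. The choice of the genes by their group pattern fixes high values here, so these are no result. Once the group means were taken out they were -0.07, -0.05 and -0.45. For PNMA1 and LGMN the value within groups was 0.95 and for ROR1 and ADAM19 0.76. Among the other genes most like the 3 it went down to -0.08 for PNMA1 and PAQR5 and -0.12 for ENPP1 and GRAMD1B. All these genes were picked for a high r over the same 9 arrays, which favours high values within groups too. ADAM19 read 6.24, 6.05 and 6.40 on mock, 7.27, 7.05 and 7.40 on negative control and 5.76, 5.98 and 5.90 on mimic arrays, its order over the 9 arrays being close to that of ROR1. LGMN read 6.10, 6.14 and 6.37 on mock, 6.78, 6.94 and 6.85 on negative control and 6.37, 5.90 and 6.07 on mimic arrays, and mimic 1 was the highest mimic array for both LGMN and PNMA1.

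**Figure D4:**
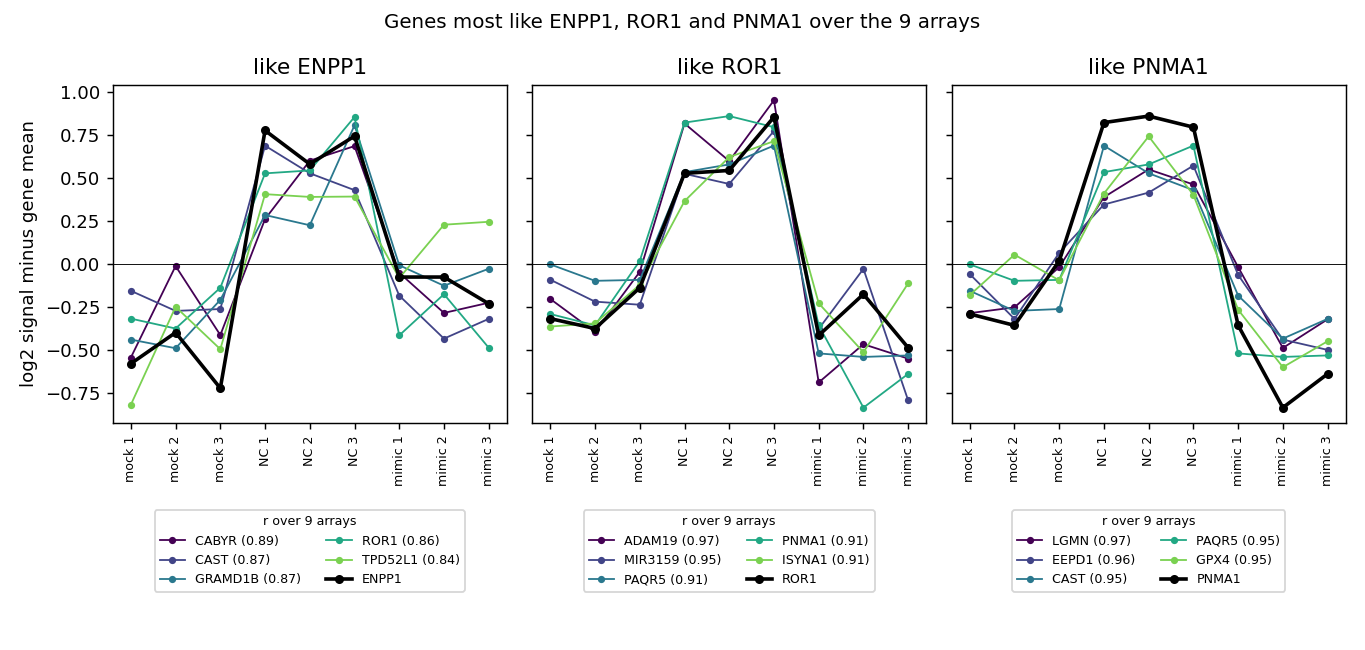
Log2 signal minus each gene's own mean on the 9 arrays, for ENPP1, ROR1 and PNMA1 (black) and the 5 genes with the highest Pearson's r with each; lines only join the points of a gene, since replicates have no order. The negative control arrays are the highest for ROR1, PNMA1 and the genes most like them, and TPD52L1 in the ENPP1 panel stays high in the mimic arrays (3.61 to 3.94, against 2.87 to 3.44 in mock).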

How the data were processed

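Log2 signals of 53617 features on 9 Affymetrix Human Gene 2.0 ST arrays were deposited by the authors, made with RMA (background correction, normalization between arrays, probe summary on a log2 scale) per the submitters' processing notes. Its version was not given in the sources used here. Of the features, 16098 had 1 gene symbol in the platform annotation; the brightest feature stood for each of 14884 genes, with no filter. RefSeq (GRCh38.p14) gave names and gene order.

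limma 3.58.1 in R 4.3.3 was fitted to all 9 arrays with 1 mean per treatment group, with two-sided p-values adjusted by Benjamini and Hochberg over all genes and a threshold of 0.05; "rose" and "fell" mean past it. The fit was tested on simulated data. The number of arrays limits the precision. The members and lists (12 lists, 208 symbols, 128 measured) were chosen with earlier results of these data known. Named were the 3 genes, their families, up to 4 called members per list and comparison, 2 measured neighbours on each side and the 5 genes with the highest r; list genes named without passing were picked after their values were seen.

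Pairing was checked by correlating deviations from group means. For equal numbers, mock and negative control had r = 0.15, 0.23 and 0.15, and pairs with mimic -0.29 to -0.054. Unequal numbers were not correlated as a baseline, so whether numbers pair mock with negative control is not decided. With the replicate block, 61 genes were called in that comparison, against 96 without it. Alternatives were other scalings, a signal filter, the mean of features, other variance settings, fits on 6 arrays, the block, and leaving arrays out.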

Additional observations from a re-analysis of the deposited data

How the results depend on the processing

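The direction of the differences of ENPP1, ROR1 and PNMA1 from the negative control followed from the choice of the genes, so its keeping is no support. Their mimic minus mock differences kept their direction under the 18 settings run for each. Over these the negative control minus mock difference ranged from 1.19 to 1.41 for ENPP1 (1.41 without mock 2 and negative control 2, a setting chosen after seeing the data), from 0.81 to 0.99 for ROR1 and from 0.95 to 1.15 for PNMA1; the mimic minus negative control difference ranged from -0.92 to -0.78, -1.09 to -0.90 and -1.56 to -1.32. For the mimic against mock, ENPP1 lost its call in 11 of 18 settings: at 0.36 with a second quantile normalization (limma adjusted p = 0.12), and at 0.44 with a trend and robust variance (adjusted p = 0.063), on the 6 arrays compared (0.084) and with the replicate block (0.085), and it ranged from 0.36 to 0.52 when arrays were left out. ROR1 (adjusted p from 0.59 to 0.98) and PNMA1 (0.059 to 0.36) passed in no setting. The reading of each other feature of a gene could not be run, as each has 1.

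Counts of called genes moved more. Against 96 in the negative control and mock, 150 were called with genes below the median signal left out, 18 on the 6 arrays compared, 61 with the replicate block, 28 without mock 2 and negative control 2, and 21 to 112 with 1 array left out (21 without mock 1). Against 473 in the mimic and negative control, 251 were called on the 6 arrays compared, 292 with the replicate block and 199 to 431 with 1 array left out (199 without mimic 3). Against 580 in the mimic and mock, 904 were called with array weights, 321 on the 6 arrays compared, 346 with the replicate block and 188 to 650 with 1 array left out (188 without mimic 1). A second quantile normalization changed the share of calls that rose from 26.0% to 41.2%, from 55.4% to 37.8% and from 58.4% to 44.6% in these comparisons. With the replicate block, whose numbers are not shown to pair the mimic arrays, the calls of ENPP5 (limma adjusted p = 0.098 against the negative control, 0.072 against mock), ISG15 (0.078), CTHRC1 (0.065 and 0.052), SFRP1 (0.063), DKK1 (0.052) and PNMA8A (0.066) were also lost, and 1 ENPP family member was called in the mimic against mock. The 48 list counts were not recounted with the mean of features, the trend and robust variance, array weights or fits on 6 arrays. Under each other setting 1 to 9 of them moved, by over 1.5 times or to or from 0. The cause was not tested. No detection calls were used here, so features near the array medians may carry little signal.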
